A study of Mus musculus with 12 samples.

Results

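The chaperone genes of the cytosol and mitochondria were taken as every gene whose symbol names a J-domain protein of the Dnaja, Dnajb or Dnajc series, an HSP70 or HSP110, a cytosolic HSP90, a small heat shock protein of the Hspb series, a subunit of the TRiC/CCT or mitochondrial chaperonin, a BAG cochaperone, or heat shock factor Hsf1 or Hsf2. The endoplasmic reticulum genes Hspa5, Dnajb9, Dnajb11 and Dnajc3 were left out by the same rule, although 6 members that passed it also work in that compartment. The rule found 71 of the 12003 genes in the deposited tables, and used symbols only, not measured values. All 71 were in the PTH table, 68 in the PF431396 table and 69 in the PDE8A KO table.

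Chaperones bind unfolded or partly folded proteins and let them fold, and most work in relays. HSP70 proteins bind a client in a cycle of ATP hydrolysis that J-domain proteins start and that nucleotide exchange factors, the BAG and HSP110 proteins among them, bring to an end. HSP90 and the barrel-shaped chaperonins take over particular clients such as kinases, actin and tubulin, and small heat shock proteins hold unfolded proteins without using ATP. Hsf1 is the transcription factor that raises many of these genes after heat or other proteotoxic stress.

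The study sequenced total RNA of Ocy454, a mouse osteocyte cell line, in 4 groups of 3 libraries. These were wild-type cells given PTH (parathyroid hormone), wild-type cells given PF431396 (an inhibitor of the tyrosine kinases FAK and PYK2), cells labelled PDE8A KO (knockout of the cAMP phosphodiesterase gene Pde8a) and wild-type cells given vehicle. The column headers name DMSO for the vehicle and the PDE8A KO libraries. Doses, times, the way the knockout was made, whether it is 1 clone and whether libraries came from separate cultures are not given in the labels. If libraries are not separate cultures, the p-values describe technical spread only. Each deposited table sets 1 group against the same vehicle libraries in values of its own scale, so levels are compared only within a table, and the 3 comparisons share their controls. In bulk RNA, fewer cells of a kind and less RNA per cell cannot be told apart.

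Several facts of the libraries touch all results. Total estimated counts ran between 27712551 and 35747425 per library. The lowest estimated count was 11 in every library, so a gene with fewer in any library may have been left out of that comparison. A gene with no value is therefore not shown to be unchanged. PF431396 libraries 1 and 3 held identical values in all 11490 rows and were counted as 1 sample, which leaves n = 2. Vehicle library 1 stood apart from vehicle libraries 2 and 3: in the PDE8A KO table it correlated with them at 0.947 and 0.945 over genes, while they correlated at 0.992 with each other, so the counts, and the changes it moved most, are also given without it. Pde8a itself read 2074, 2438 and 2037 normalised counts in the libraries labelled PDE8A KO, against 3100, 2579 and 2890 in vehicle libraries (log2 fold change −0.39 ± 0.14 SE, limma adjusted p = 0.0681), a gene-level value, and the labels do not say what part of the gene was altered. Of the osteocyte markers Dmp1, Phex and Pdpn had values, and Mepe, Sost and Fgf23 were not analysed here. All 5 osteoblast markers had values, and the adipocyte and endothelial markers had none.

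In vehicle-treated cells the family was led by the constitutive cytosolic machines. Per kilobase of exon, Hsp90ab1, the constitutive cytosolic HSP90, had the highest level, with 15081, 25931 and 26120.3 normalised counts per kb in the 3 vehicle libraries. Hspa8, the constitutive HSP70, followed at 10447 ± 1564 per kb (SD, n = 3, as for the other levels in this paragraph). Hsp90aa1 at 8119 ± 114, Hspd1, which encodes the mitochondrial chaperonin HSP60, at 7433 ± 1720 and Hspa9, the mitochondrial HSP70, at 7378 ± 2413 per kb came next and did not differ beyond their spread. HSP90 genes held 27.2% of the members' summed level per kb, TRiC subunits 20.3%, HSP70 genes 17.4% and the mitochondrial chaperonin 9.99%. DNAJC genes held 7.81%, BAG genes 6.09%, DNAJA genes 4.33% and DNAJB genes 2.91%.

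The stress-inducible members named here lay at the top and in the middle of the ranking. Hsp90aa1, Hspd1 and Hspe1 were among the 8 highest, and Hspa1b ranked 38 of 71. Dnajb1, the main stress-inducible HSP40, ranked 18 of 71 at 1465 ± 332 per kb, and Hspb1, known as HSP25 in mouse, ranked 24 with 229, 1176 and 1043 per kb in vehicle libraries 1, 2 and 3. Vehicle library 1 was thus far below the other two for Hspb1. Hspa1b, a stress-inducible HSP70, lay at 372 ± 99.7 per kb and Hsf1 at 240 ± 16.4 per kb. HSP110 genes together held 2.15%, small heat shock protein genes 1.42% and both heat shock factors 0.327% of the summed level. The lowest member was Dnajc22 at 18.1 ± 14.5 per kb.

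**Figure D1:**
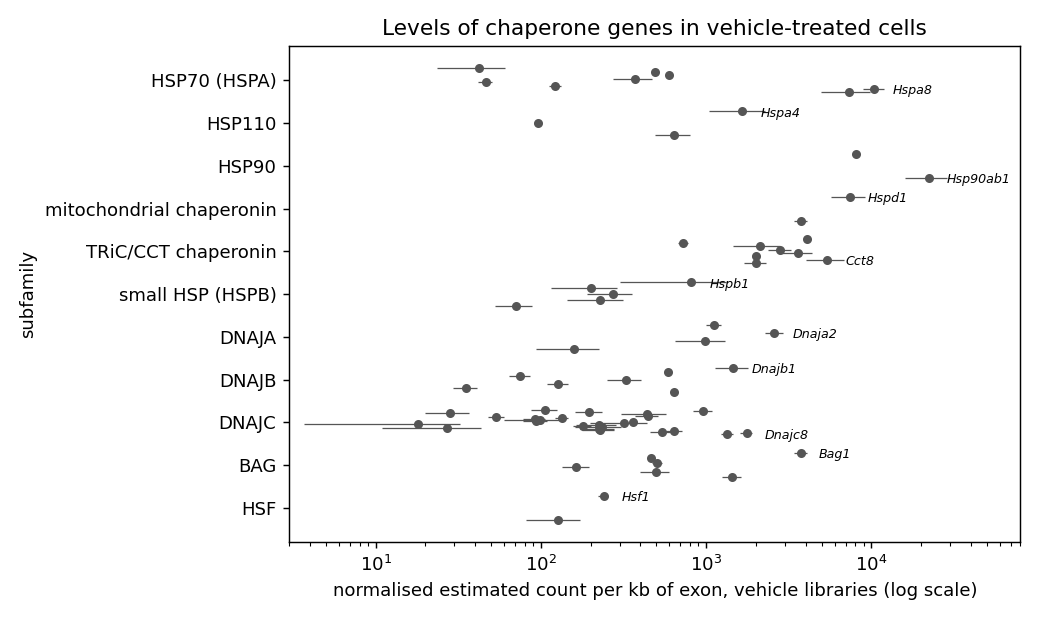
Levels of the 71 members in vehicle libraries by subfamily, in normalised estimated counts per kb of exon on a log axis; points are means and lines are SD over 3 libraries. Hsp90ab1 and Hspa8 lie highest, and Hspb1 has one of the widest spreads, 816 ± 513 per kb.

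The start-site windows of 4 genes picked by their results are shown, and they are not a sample of the members. Dnajb1 and Hspb1 moved most under PF431396 in each direction, Hspe1 is the co-chaperonin gene that rose with it, and Dnajb6 rose under PTH. Each runs 5′ to 3′ on the gene's strand over 300 bases, 250 before and 50 after the RefSeq start on GRCm38.p6, and capitals mark GAANNTTC or TTCNNGAA, a pair of inverted units of the heat shock element that Hsf1 binds. The windows lie at chr8:83607925-83608224 (plus strand, Dnajb1), chr5:135887669-135887968 (plus strand, Hspb1), chr1:55087898-55088197 (plus strand, Hspe1) and chr5:29735648-29735947 (plus strand, Dnajb6).
Dnajb1: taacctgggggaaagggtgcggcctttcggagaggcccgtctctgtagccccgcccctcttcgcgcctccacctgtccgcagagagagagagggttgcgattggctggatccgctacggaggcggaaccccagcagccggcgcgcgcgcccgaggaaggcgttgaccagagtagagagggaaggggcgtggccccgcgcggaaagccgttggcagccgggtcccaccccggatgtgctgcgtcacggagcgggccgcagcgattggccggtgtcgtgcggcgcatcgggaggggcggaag
Hspb1: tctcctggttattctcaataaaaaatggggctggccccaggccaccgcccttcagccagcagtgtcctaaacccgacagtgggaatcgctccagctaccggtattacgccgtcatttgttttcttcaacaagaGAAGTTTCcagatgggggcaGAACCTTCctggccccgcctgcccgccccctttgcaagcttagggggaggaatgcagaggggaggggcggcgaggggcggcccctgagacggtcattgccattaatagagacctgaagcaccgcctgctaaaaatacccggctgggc
Hspe1: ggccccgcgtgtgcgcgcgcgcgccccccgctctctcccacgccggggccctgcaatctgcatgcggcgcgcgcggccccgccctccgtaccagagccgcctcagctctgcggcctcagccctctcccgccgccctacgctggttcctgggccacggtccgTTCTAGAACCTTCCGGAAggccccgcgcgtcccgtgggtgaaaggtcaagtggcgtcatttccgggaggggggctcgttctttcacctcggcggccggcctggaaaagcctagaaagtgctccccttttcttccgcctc
Dnajb6: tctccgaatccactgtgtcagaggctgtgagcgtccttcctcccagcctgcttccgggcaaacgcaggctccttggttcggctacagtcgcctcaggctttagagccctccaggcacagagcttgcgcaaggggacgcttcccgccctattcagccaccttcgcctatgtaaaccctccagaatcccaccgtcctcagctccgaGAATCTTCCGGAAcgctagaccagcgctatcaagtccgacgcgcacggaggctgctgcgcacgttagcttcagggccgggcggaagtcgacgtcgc
Hspe1 held 3 overlapping matches, starting 89, 84 and 79 bases before the start, Hspb1 held 2, at 117 and 97 bases before it, Dnajb6 held 2 overlapping ones, at 46 and 41 bases before it, and Dnajb1 held 0 in this window. Of windows not shown, that of Hspb7, the member with the largest change in PDE8A KO, held 0 and that of Hspa1b held 1. RefSeq windows were matched for 55 of the 71 members. The pair of units was in the windows of 12 of these 55 (21.8%), and in 15.1% of 27025 genes' windows of the same length. The longer run of 3 units, in which GAA and TTC alternate with 2 bases between them and which contains the pair, was in 3 of 55 (5.45%; Hspe1, Dnajb6 and Hsph1) and in 0.529% of all windows. A match describes letters in the window on either strand, not binding.

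PTH left most chaperone genes without a called change. Dnajb6, a J-domain protein known for holding back polyglutamine aggregation, was the member with the smallest adjusted p and rose 0.89 ± 0.09 on the log2 scale. Dnajb12, a J-domain protein of the endoplasmic reticulum membrane, and Hspa2, an HSP70 best known from the testis, rose less, and the small heat shock protein gene Hspb7, known from heart and skeletal muscle where it binds filamin, fell. In all 3 of 71 members rose and 1 fell by an adjusted p below 0.05 in limma, 5.63% of members, where 7.71% of all 11775 genes passed (5.36% higher, 2.35% lower). With the further demand of a 2-fold change, which the study's design text used, 0 members were called higher and 1 lower, against 2.86% and 1.01% of all genes (3.87% in all). The PTH and vehicle libraries did not overlap in 25 members (35.2%), against 35.9% of all genes. The members' median log2 fold change was 0.06, and that of all genes −0.00.

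Dnajb6 read 7021, 6988 and 7444 normalised counts in PTH libraries, against 3781, 4018 and 3784 in vehicle libraries (limma adjusted p = 0.00207). Every PTH library was above every vehicle library, and the change stayed between 0.86 and 0.92 when each library was left out in turn. Dnajb12 read 2565, 2700.2 and 2757 in PTH libraries, against 2007, 1944 and 1966 in vehicle libraries (0.44 ± 0.09, adjusted p = 0.0379). Hspa2 read 474, 517 and 521 in PTH libraries, against 294, 336 and 339 in vehicle libraries (0.64 ± 0.15, adjusted p = 0.0478). Hspb7 read 249.8, 219 and 245 in PTH libraries, against 376, 700.4 and 831 in vehicle libraries (−1.34 ± 0.30, adjusted p = 0.0432). The groups of all 3 genes did not overlap, but each passed in only 1 of the 6 fits that left out a library, the one without vehicle library 1, where Hspb7 fell by 1.68.

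The abundant cytosolic chaperones gave mixed values under PTH. Hspa8 read 63415, 66971 and 64284 in PTH libraries, against 37186, 49276 and 48339 in vehicle libraries, which did not overlap, and its change of 0.54 ± 0.13 missed the threshold (adjusted p = 0.0502). Without vehicle library 1 it was 0.41, adjusted p = 0.00023. Hsp90aa1, the stress-inducible cytosolic HSP90, had a change of −0.06 (adjusted p = 0.696) and Hsp90ab1 of 0.46 (adjusted p = 0.248), or 0.19 (0.0193) without vehicle library 1. Hspb1 read 1197, 1452 and 1008 in PTH libraries, against 236, 1212 and 1075 in vehicle libraries, so its change of 0.84 ± 0.59 (adjusted p = 0.43) was 0.08 without vehicle library 1. Of the other stress-inducible genes, Dnajb1 had 0.16 (adjusted p = 0.593; 0.34 and 0.00355 without vehicle library 1), Bag3 0.25 (0.22), Dnaja1 −0.14 (0.477) and Hspa1b −0.18 (0.693), and none of the 10 members known from textbooks as heat-inducible passed. These 10 were Hspb1, Hspa1b, Hspa8, Hsp90aa1, Hsph1, Dnajb1, Dnaja1, Bag3, Hspd1 and Hspe1. The set thus includes Hspa8, named above as the constitutive HSP70.

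By subfamily, 2 of 7 DNAJB genes and 1 of 8 HSP70 genes rose and 1 of 5 small heat shock protein genes fell, while no gene of HSP110, HSP90, the chaperonins, DNAJA, DNAJC, BAG or the heat shock factors passed under PTH. The 8 TRiC subunits lay between −0.14 and 0.23. The 9 mitochondrial members, none of which passed, had a median of −0.31. Left-out libraries changed these counts: without vehicle library 1, 18 members rose and 7 fell, beside 18.0% of all genes higher and 12.9% lower in that fit. Leaving out any 1 of the other 5 libraries left 1 member, Dnajb6. With all libraries brought to 1 common total the median of all genes moved to −0.12 and that of the members to −0.06; Dnajb6 (0.77) then rose, Hspb7 and Bag2 (−0.58) fell, beside 4.04% of all genes higher and 4.25% lower, and Dnajb12 (adjusted p = 0.09) and Hspa2 (0.0767) did not pass.

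**Figure D2:**
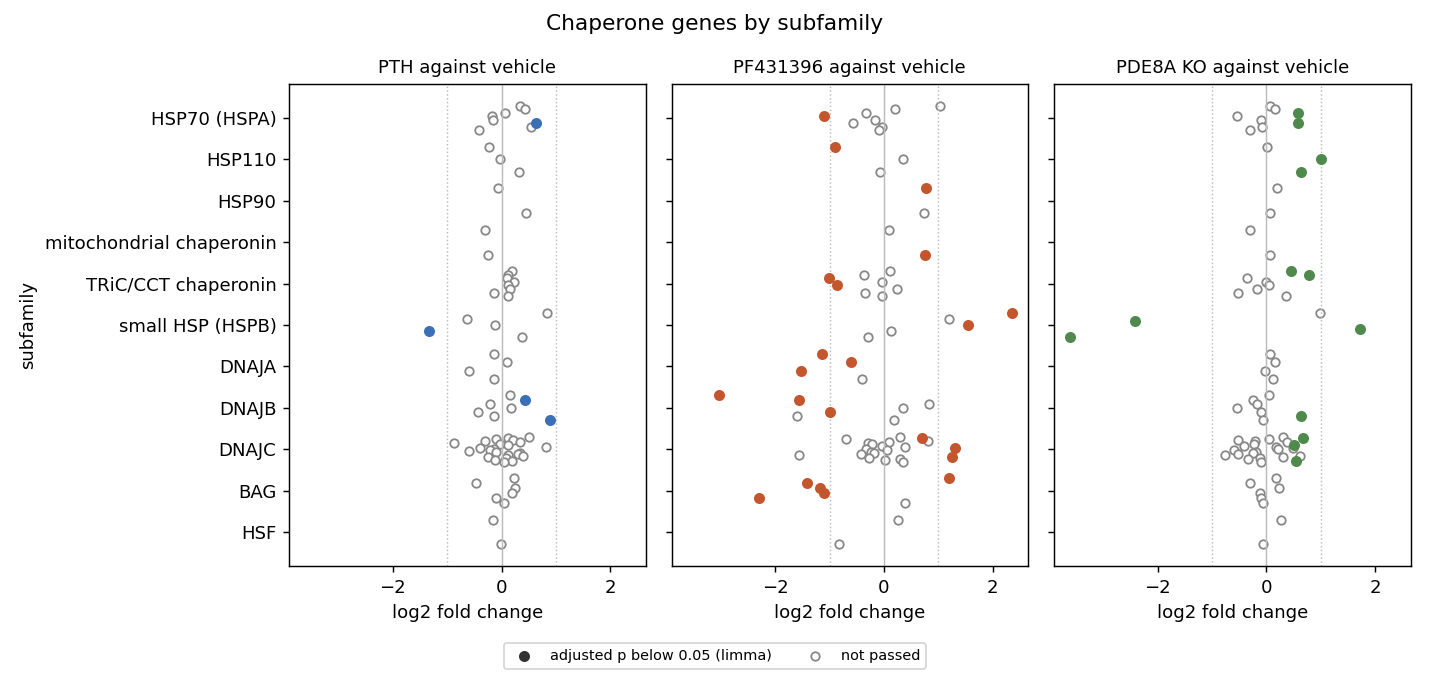
Log2 fold change of each member against vehicle in the 3 comparisons, by subfamily; each point is 1 gene, filled where the limma adjusted p is below 0.05, and dotted lines mark 2-fold. PF431396 has 22 filled points spread over both sides, PTH 4 and PDE8A KO 13, of which 11 lie to the right.

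PF431396 changed genes of most chaperone subfamilies, in both directions. J-domain genes of the DNAJA and DNAJB series fell in 6 of 11 cases, led by Dnajb1, which dropped by 3.03 ± 0.22 on the log2 scale. Among 6 BAG genes 4 fell while Bag1 rose, but of the 21 DNAJC genes with values 3 rose and 0 fell. Dnajc17, Dnajc22 and Dnajc28 had no value in this comparison, so a fall of these genes could not be seen. The small heat shock protein genes Hspb1 and Hspb6 rose, as did Hsp90aa1 and Hspe1. The abundant Hspa8, Hspa9 and Hspd1 had changes between −0.10 and 0.09 and did not pass. In all, 8 of 68 members rose and 14 fell (32.4%), where 37.1% of all 11484 genes passed (16.9% higher, 20.3% lower). With the 2-fold demand, 5 were called higher and 10 lower (22.1%), against 10.9% and 15.2% of all genes (26.2% in all). The groups did not overlap in 43 members (63.2%), against 65.8% of all genes, so none of these shares stood above that of the transcriptome.

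Dnajb1, which hands clients to HSP70 and starts its ATPase, read 465 and 473 normalised counts in PF431396 libraries, against 4852, 3409.5 and 3412 in vehicle libraries (limma adjusted p = 0.00247). Both PF431396 libraries were far below the lowest vehicle library, and each fit that left out a library gave a drop of at least 2.86. Dnajb12 read 558 and 459.7 in PF431396 libraries, against 1509, 1490.4 and 1508 in vehicle libraries (−1.57 ± 0.19, adjusted p = 0.00327). Dnajb4, another cytosolic partner of HSP70, read 440.1 and 477 in PF431396 libraries, against 754, 970.4 and 1031 in vehicle libraries (−0.99 ± 0.23, adjusted p = 0.019). The DNAJB genes were not uniform, since Dnajb6 had 0.18 (adjusted p = 0.354) and Dnajb14, of the endoplasmic reticulum membrane, 0.83 (0.0609).

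Of 4 DNAJA genes, 3 fell. Dnaja1, a cytosolic HSP70 partner that is induced by heat, read 3283 and 4686 in PF431396 libraries, against 9625, 8417 and 8108 in vehicle libraries (−1.15 ± 0.19, adjusted p = 0.00736). Dnaja3, the mitochondrial J-domain partner of Hspa9, read 1136 and 1011 in PF431396 libraries, against 4349, 2742 and 2455 in vehicle libraries (−1.52 ± 0.27, adjusted p = 0.00841), and the gene overlaps Vasn on its own strand and Coro7 on the other. The groups of both did not overlap. Dnaja2 fell by 0.60 ± 0.18 (adjusted p = 0.0436). Among the 21 DNAJC genes with values 0 fell and 3 rose. Dnajc19, of the mitochondrial import motor, read 593 and 933 in PF431396 libraries, against 248, 353 and 314 in vehicle libraries (1.30 ± 0.31, adjusted p = 0.0206). Dnajc4 rose by 1.24 ± 0.35 and Dnajc10, a disulfide reductase of the endoplasmic reticulum, by 0.70 ± 0.17, and the other DNAJC genes lay between −1.56 and 0.80 without passing.

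The BAG genes moved in opposite directions. Bag5, which binds HSP70 through several BAG domains, read 254 and 177 in PF431396 libraries, against 1284, 1011 and 893 in vehicle libraries (−2.30 ± 0.28, adjusted p = 0.00339). Bag2, an inhibitor of the ubiquitin ligase CHIP, read 526 and 404 in PF431396 libraries, against 1174, 1278 and 1257 in vehicle libraries (−1.42 ± 0.21, adjusted p = 0.00515). Bag3, which links HSP70 to small heat shock proteins and to selective autophagy, read 404 and 563 in PF431396 libraries, against 1148, 1015 and 1066 in vehicle libraries (−1.17 ± 0.23, adjusted p = 0.0107). In these 3 genes each PF431396 library lay below each vehicle library, and Bag4 also fell, by 1.11 ± 0.26. Bag1, which links HSP70 to the proteasome, read 9721 and 9669 in PF431396 libraries, against 3723, 4566 and 4416 in vehicle libraries (1.20 ± 0.15, adjusted p = 0.0036). Its groups did not overlap either, and Bag6 had 0.38 (adjusted p = 0.128).

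**Figure D3:**
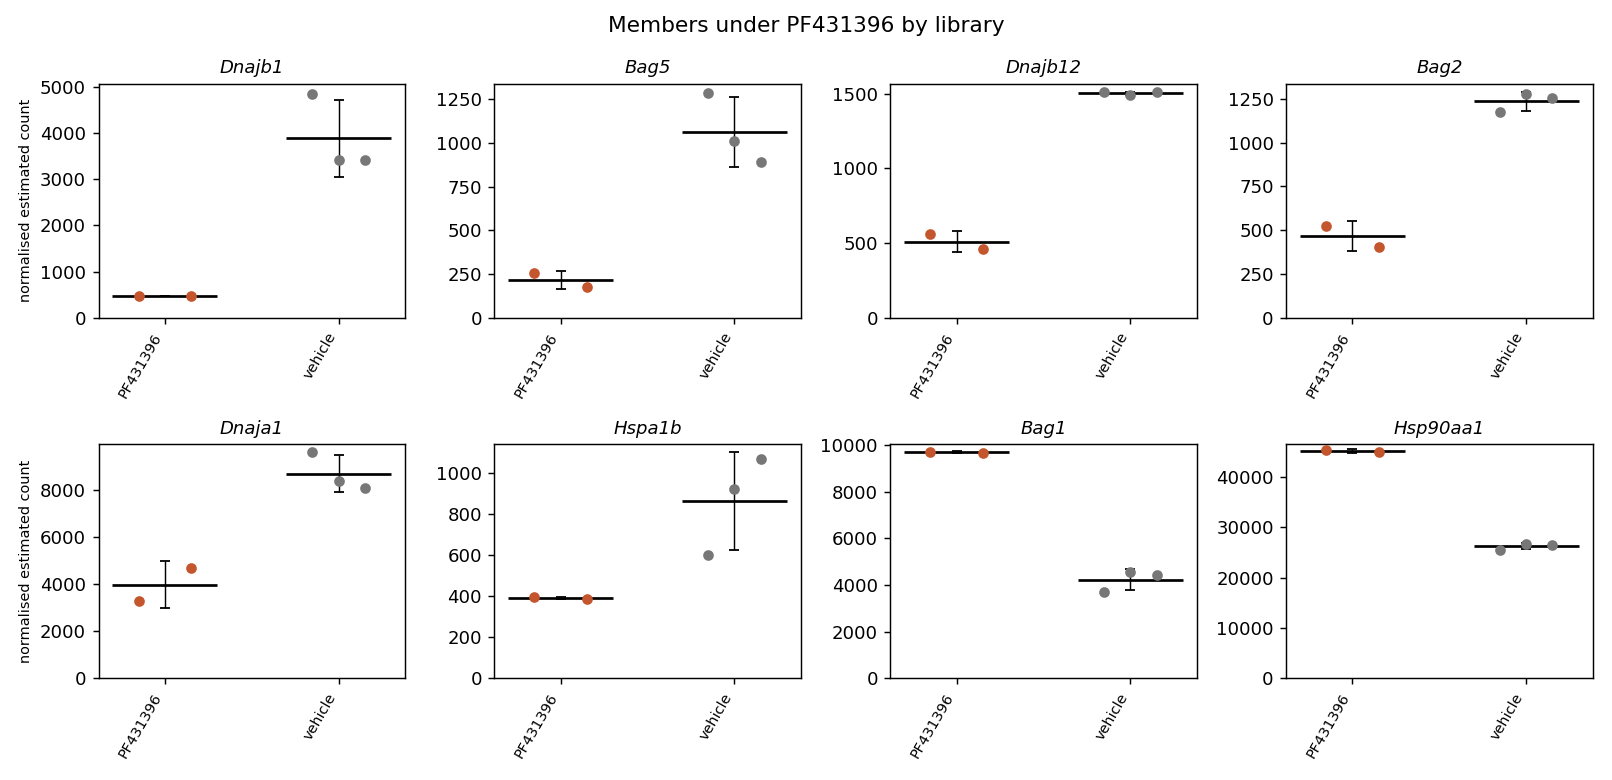
Normalised estimated counts of 8 members in 2 distinct PF431396 libraries and 3 vehicle libraries; points are libraries, bars means and error bars SD, and each axis starts at 0. Dnajb1 lies at 465 and 473 under PF431396, far below its vehicle libraries, while Bag1 and Hsp90aa1 lie above theirs.

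The HSP70, HSP110, HSP90 and chaperonin genes each included members that passed and members that did not. Hspa1b read 395 and 387 in PF431396 libraries, against 601, 922 and 1068 in vehicle libraries (−1.10 ± 0.30, adjusted p = 0.0302), and its near-identical neighbour Hspa1a was not analysed here, so reads of the pair may be split. Hspa8 read 40573 and 36970.4 in PF431396 libraries, against 32500.5, 43924 and 43124 in vehicle libraries, which overlapped (−0.03, adjusted p = 0.913). Hspa4, an HSP110 exchange factor, read 3735 and 4285 in PF431396 libraries, against 11076, 6289 and 6098 in vehicle libraries (−0.91 ± 0.28, adjusted p = 0.0461). Its relatives Hspa4l (0.36, adjusted p = 0.209) and Hsph1 (−0.07, 0.844) did not pass.

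Hsp90aa1 read 45302 and 44848 in PF431396 libraries, against 25470.5, 26686 and 26539 in vehicle libraries (0.78 ± 0.12, adjusted p = 0.0061). Hsp90ab1 read 94694 and 85819 in PF431396 libraries, against 37122, 65097 and 65626 in vehicle libraries (0.74 ± 0.27, adjusted p = 0.0738; 0.46 and 0.00323 without vehicle library 1). Both genes were higher in each PF431396 library than in any vehicle library, and only Hsp90aa1 passed. Hspe1, the lid of the mitochondrial chaperonin, read 8068 and 7717 in PF431396 libraries, against 5058, 4605 and 4368 in vehicle libraries (0.76 ± 0.14, adjusted p = 0.0096), while Hspd1, which shares its promoter region and overlaps it head to head by 112 bases, had 0.09 (adjusted p = 0.73). Hspe1 and Hspd1 also have 6 and 5 pseudogenes named after them, so their counts may be split. Of 8 TRiC subunits, Cct4 fell by 1.01 ± 0.26 (adjusted p = 0.0249) and Cct6a by 0.86 ± 0.19 (0.0166), with Cct2 at 0.10, Cct5 at −0.04 and Tcp1 at −0.04.

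Hspb1 read 2834 and 2953 in PF431396 libraries, against 195, 1022 and 907 in vehicle libraries (2.35 ± 0.70, adjusted p = 0.04). Hspb6, known as HSP20 and abundant in muscle, read 1551 and 1357 in PF431396 libraries, against 329, 631 and 585 in vehicle libraries (1.55 ± 0.32, adjusted p = 0.0137). In both genes the PF431396 libraries exceeded every vehicle library, also without the low vehicle library 1, where the changes were 1.59 for Hspb1 and 1.25 for Hspb6. Hspb2 had 1.20 ± 0.49 (adjusted p = 0.0972; 0.78 without vehicle library 1), Hspb7 0.14 (0.811) and Hspb8, a partner of Bag3, −0.29 (0.594). Hsf1 read 1474 and 1822 in PF431396 libraries, against 1367, 1285 and 1474 in vehicle libraries (0.25, adjusted p = 0.31), and Hsf2 had −0.83 ± 0.31 (0.0789). Of the 10 heat-inducible members, 3 rose (Hspb1, Hsp90aa1, Hspe1) and 4 fell (Dnajb1, Dnaja1, Bag3, Hspa1b). The 8 mitochondrial members split 2 up and 1 down.

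The direction of the smaller changes under PF431396 rests on scaling. The deposited values sum to 35496369 and 35740515 in PF431396 libraries, against 23989359 to 24968487 in vehicle libraries, and mitochondrially encoded transcripts held 11.8% and 13.0% of the values in PF431396 libraries, against 3.89% to 5.19% in vehicle libraries. The part of this in the results was not tested. With all libraries brought to 1 common total, the median of all genes was −0.55 and that of the members −0.59, only 2 members rose (Hspb6, 1.02, and Bag1, 0.67) and 32 fell, where 6.53% of all genes were higher and 39.3% lower. Hspb1 then had 1.82 (adjusted p = 0.0681), Hsp90aa1 0.25 (0.126), Hspe1 0.22 (0.263) and Dnajc10 0.17, and Cct2 turned to −0.43 (0.0373). The drops of Dnajb1, Bag5 and Bag2 were larger there, at −3.56, −2.83 and −1.95. All members together held 1.09% and 1.03% of the values in PF431396 libraries, against 1.36% to 1.43% in vehicle libraries.

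**Figure D4:**
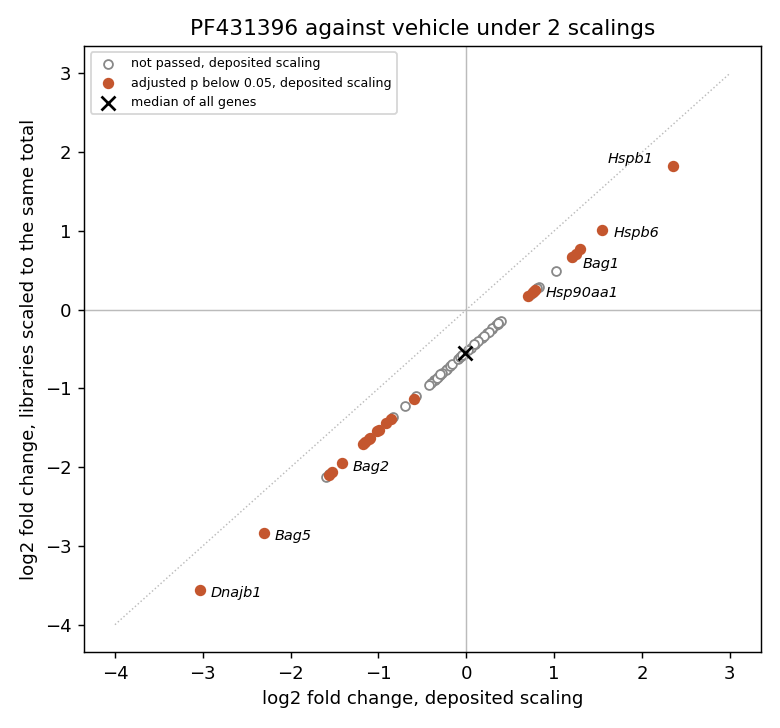
Log2 fold change of each of 68 members under PF431396 as deposited (horizontal) and with all libraries scaled to the same total (vertical); the dotted line marks equal values and the cross the median of all genes. All points lie below the line by about the same amount, so members slightly above 0 change sign, while Dnajb1 and Bag5 stay below 0 and Hspb6 and Bag1 above it.

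A fit left with 1 PF431396 library assumes that it varies like the vehicle libraries. In such fits 10 members passed without PF431396 library 1 and 8 without library 2. The 7 members that passed in all 5 fits that left out a library were Dnajb1, Dnajb12, Dnaja1, Bag1, Bag2, Bag3 and Bag5, of which Dnaja1 (−0.89) and Bag3 (−0.93) lost the 2-fold mark without PF431396 library 1. Hspb1, Hspb6, Dnaja3, Cct4, Cct6a, Hspa4, Hsp90aa1, Hspe1 and Dnajc10 were lost without either PF431396 library, and Dnajc19 without library 2. Hspa1b, Dnajb4, Dnaja2 and Dnajc4 passed only without vehicle library 1, and Bag4 passed only without vehicle library 1 or 3. Without vehicle library 1, 15 members rose and 16 fell, beside 23.9% of all genes higher and 25.2% lower.

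The libraries labelled PDE8A KO differed from vehicle most in the small heat shock protein genes, and these split. Hspb7 and Hspb2 fell (log2 fold changes −3.61 ± 0.35 and −2.42 ± 0.44) and Hspb6 rose (1.73 ± 0.26). Hspb8 had no value in this comparison, so a fall of it could not be seen. Smaller rises were seen in exchange factors of the HSP110 series (Hspa4l, Hsph1), in the TRiC subunits Cct3 and Cct2, and in the ribosome-associated HSP70 gene Hspa14. In all, 11 of 69 members rose and 2 fell (18.8%), where 27.8% of all 11592 genes passed (14.6% higher, 13.2% lower). With the 2-fold demand, 2 were called higher and 2 lower (5.8%), against 6.32% and 5.13% of all genes (11.5% in all). The groups did not overlap in 31 members (44.9%), against 49.8% of all genes. The members' median was 0.02 and that of all genes −0.00, and no DNAJA, HSP90, mitochondrial chaperonin, BAG or heat shock factor gene passed.

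Hspb7 (chr4:141420779-141425311, GRCm38, plus strand) read 47.9, 66.2 and 40.0 normalised counts in libraries labelled PDE8A KO, against 386, 729 and 866 in vehicle libraries (limma adjusted p = 0.00065). Hspb2 (chr9:50751078-50752354, minus strand), a small heat shock protein gene known from muscle, read 22.5, 43.5 and 27.3 in PDE8A KO libraries, against 91.7, 202 and 238 in vehicle libraries (adjusted p = 0.00725). Hspb6 (chr7:30552178-30555443, plus strand) read 2104, 2404 and 1788 in PDE8A KO libraries, against 419, 798 and 739 in vehicle libraries (adjusted p = 0.0033). For all 3 genes the groups did not overlap and every fit that left out a library kept the call. Hspb2 overlaps the related small heat shock protein gene Cryab on the opposite strand by 1030 bases, and the labels do not say whether counting used strand. Cryab read 1729, 1993 and 1565 in PDE8A KO libraries, against 944, 2260.0 and 2353 in vehicle libraries (0.03, adjusted p = 0.949).

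Hspb1 read 1526, 1464 and 1315 in PDE8A KO libraries, against 251, 1303 and 1157 in vehicle libraries, with groups that did not overlap and a change of 0.98 ± 0.56 that did not pass (adjusted p = 0.225). Without vehicle library 1 that change was 0.22 (0.158). Cell type markers also differed in the PDE8A KO libraries. Of 3 osteocyte markers Pdpn was called higher and Dmp1 and Phex lower. Sox9 of the chondrocyte list and Ctsk of the macrophage and osteoclast list were called higher. Each was the only gene of its list with a value, since Acan, Col2a1, Ptprc, Csf1r and Acp5 had none. Of 5 osteoblast markers 4 were called lower (Ibsp −6.42, Sp7 −3.97, Alpl −2.95 and Bglap −1.71) and Col1a1 was not (−0.13). Their summed value, most of it Col1a1, was 72422 to 92417 in PDE8A KO libraries, against 48864 to 215008 in vehicle libraries. The lowest of these vehicle sums was that of vehicle library 1. The muscle markers split: Acta1 read 14.7, 34.5 and 14.6 in PDE8A KO libraries, against 3184, 715 and 727 in vehicle libraries, and was called lower, while Des read 126, 139.7 and 148 in PDE8A KO libraries, against 52.4, 92.0 and 40.2 in vehicle libraries, and was called higher. Their sum was 141 to 174 in PDE8A KO libraries, against 768 to 3236 in vehicle libraries, and Myod1 had no value. Markers were also called in the other groups. Pdpn (2.91) and Sox9 (1.33) were called higher under PTH, and Bglap (1.72) and Ctsk (2.32) higher under PF431396. Sox9 under PTH passed in only 2 of the 6 fits that left out a library. Without vehicle library 1, Pdpn (2.42) and Sox9 (1.06) were called higher under PTH, and Sp7 (−2.58), Dmp1 (−1.81) and Acta1 (−1.25) lower. Under PF431396 the same fit called Bglap (1.36), Alpl (1.11) and Ctsk (2.47) higher and Sp7 (−2.02) lower. Acta1 read 407, 382 and 196 in PTH libraries, against 3336, 740 and 752 in vehicle libraries. Its groups did not overlap, but with all libraries its change of −1.97 did not pass (limma adjusted p = 0.106), and Des had 0.36 (0.694). The part of these markers in the fall of Hspb7 and Hspb2 was not tested.

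**Figure D5:**
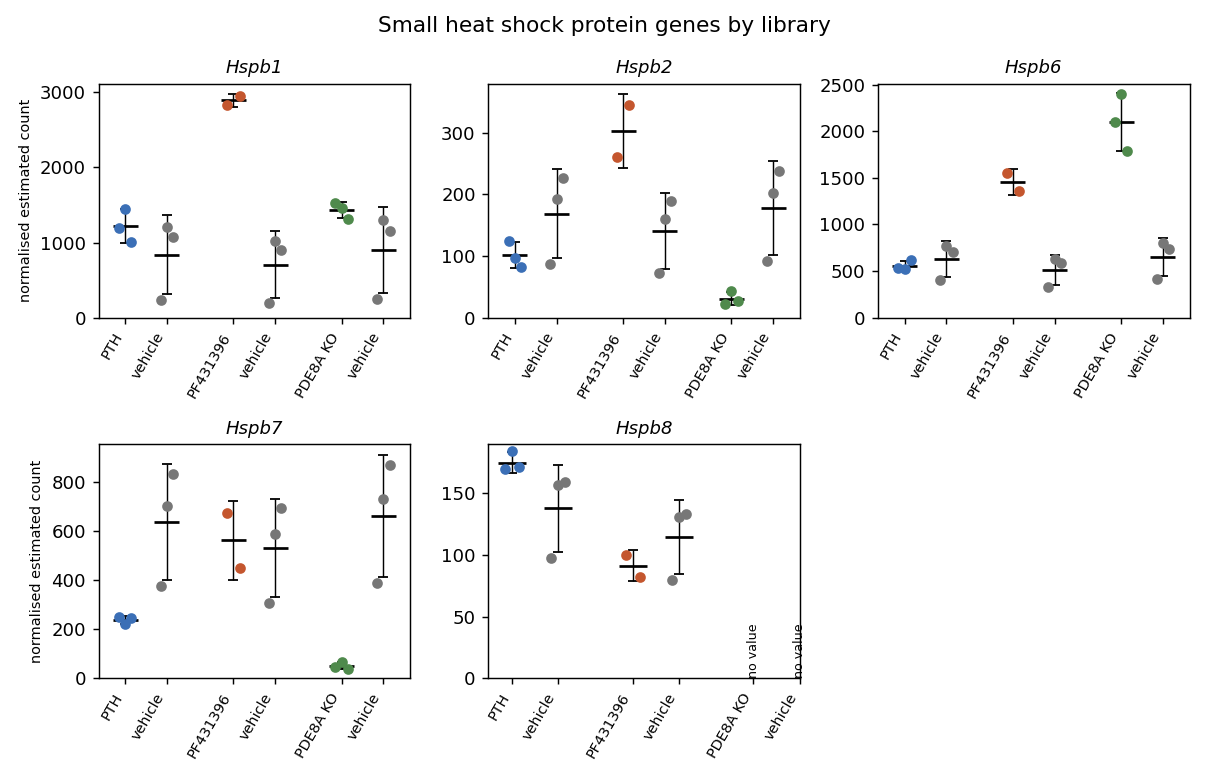
Normalised estimated counts of the 5 small heat shock protein genes by library, each group beside the vehicle libraries of its own table; points are libraries, bars means and error bars SD, and Hspb8 had no value in the PDE8A KO table. Levels are compared only with the vehicle libraries beside them. In PDE8A KO libraries Hspb7 lies near 0 and Hspb6 above vehicle, under PF431396 Hspb1 and Hspb6 lie above vehicle, and vehicle library 1 is the lowest vehicle point throughout.

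Hspa4l, an HSP110 family member, read 2246, 2546 and 2400.4 in PDE8A KO libraries, against 1225, 1215 and 1129 in vehicle libraries (1.01 ± 0.12, adjusted p = 0.00139). Cct3, a TRiC subunit, read 8348, 8021 and 7911 in PDE8A KO libraries, against 5046, 4494 and 4599 in vehicle libraries (0.78 ± 0.11, adjusted p = 0.00285). Hspa14, which works with Dnajc2 at the ribosome, read 3954, 3686 and 3680.1 in PDE8A KO libraries, against 2456, 2540.0 and 2593 in vehicle libraries (0.58 ± 0.11, adjusted p = 0.00904). These 3 genes passed in all 6 fits that left out a library, although Hspa4l lost the 2-fold mark without vehicle library 3 and without PDE8A KO library 2, with a change as low as 0.97.

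Dnajc10 read 7428, 7529.8 and 9094 in PDE8A KO libraries, against 4225, 5452 and 5443 in vehicle libraries (0.67 ± 0.15, adjusted p = 0.0161). Dnajc8, which is found with the spliceosome, rose by 0.54 ± 0.12 (adjusted p = 0.0161). Each passed in 4 of the 6 fits that left out a library, and was lost without PDE8A KO library 2 and, for Dnajc10 library 3 and for Dnajc8 library 1. Hsph1 (0.64 ± 0.18), Dnajb5 (0.64 ± 0.20), Hspa2 (0.59 ± 0.16), Dnajc16 (0.50 ± 0.15) and Cct2 (0.46 ± 0.12) rose with adjusted p between 0.0238 and 0.0471 and passed, among those fits, only without vehicle library 1.

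The 8 TRiC subunits, which belong to the same complex, were thus not moved together in the PDE8A KO libraries. Cct3 and Cct2 rose, while Cct8 read 12025, 11599 and 11878 in PDE8A KO libraries, against 22263, 15196 and 14298 in vehicle libraries (−0.52 ± 0.18, adjusted p = 0.0671; −0.32 and 0.0179 without vehicle library 1). Tcp1 had 0.36 (adjusted p = 0.102) and Cct5 −0.01 (0.966). The abundant Hspa8 had −0.08 (0.739), and Dnajb1 had 0.05 (0.848). Of the 10 heat-inducible members 1 rose, Hsph1, and 0 of 9 mitochondrial members passed. Counts of members passing were 18 without vehicle library 1 (14 higher and 4 lower, beside 23.2% and 22.2% of all genes), 8 without vehicle library 2 or 3, and 7, 6 and 7 without PDE8A KO libraries 1, 2 and 3.

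Direct differences between the 3 groups were taken on values relative to the vehicle mean of each table, over 11095 genes in all tables. The spread of the vehicle libraries does not enter their error, and 65.3% of all genes differed between PF431396 and PDE8A KO, 67.4% between PF431396 and PTH, and 50.3% between PTH and PDE8A KO, so a passing difference is the usual result. Of the 67 members present throughout, 51, 50 and 29 passed in these contrasts.

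Dnajb1 was lower under PF431396 than under PTH by a log2 difference of −3.19 ± 0.12 (limma adjusted p = 1.18e-07) and lower than in PDE8A KO by −3.08 ± 0.12 (8.57e-08), while PTH minus PDE8A KO was 0.10 (0.439). Bag5 was also lower under PF431396, by −2.20 ± 0.16 against each of the other two. Bag1 was higher under PF431396, by 0.96 ± 0.11 against PTH and 1.01 ± 0.11 against PDE8A KO, or by 0.55 and 0.49 with libraries at 1 common total. Each of these differences passed in all 11 fits that left out a library.

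The small heat shock protein genes ordered the groups differently from one another. Hspb7 was higher under PTH than in PDE8A KO by 2.27 ± 0.23 (adjusted p = 3.68e-05), and higher under PF431396 than in PDE8A KO by 3.75 ± 0.26 (1.52e-06). Hspb6 was lower under PTH than in PDE8A KO by −1.86 ± 0.16 (1.53e-05), while PF431396 minus PDE8A KO was −0.18 ± 0.18 (0.405) as deposited and −0.71 (0.00514) at 1 common total. Hspb1 was higher under PF431396 than under PTH by 1.52 ± 0.17 (3.41e-05) and than in PDE8A KO by 1.37 ± 0.17 (7.35e-05). Hspb2 was higher under PTH than in PDE8A KO by 1.78 ± 0.31 (0.00101).

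Dnajb6 was higher under PTH than in PDE8A KO by 0.95 ± 0.08 (adjusted p = 1.46e-05) and lower under PF431396 than under PTH by −0.71 ± 0.09 (9.07e-05). Hspa8 was likewise higher under PTH than in PDE8A KO, by 0.62 ± 0.08 (0.000163). Hspa4l was lower under PTH than in PDE8A KO by −1.03 ± 0.19 (0.0015), and so was Cct3, by −0.65 ± 0.07 (7.77e-05). Scaled to the same total, the differences of Dnajb6, Hspa8, Hspa4l and Cct3 between PTH and PDE8A KO kept their signs (0.84, 0.51, −1.15 and −0.77), and that of Hsp90aa1 between PF431396 and PDE8A KO shrank to 0.05, from 0.58 ± 0.09 as deposited.

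Partner genes of the chaperones were followed in 5 lists of 63 genes in all. Under PTH none of 19 cochaperones of HSP90 and HSP70, 8 prefoldin and phosducin-like partners of TRiC or 12 mitochondrial partners and proteases passed. Over all genes 5.36% rose and 2.35% fell. Of 15 endoplasmic reticulum chaperones 1 rose under PTH, the J-domain gene Dnajb9, which read 3154, 3076 and 3304 in PTH libraries, against 1888, 1907 and 1869 in vehicle libraries (0.75 ± 0.09, adjusted p = 0.00482). Of 9 ubiquitin and stress genes, Ubb and Gadd45a rose and Ddit3, which encodes CHOP, and Gadd45b fell (Ddit3 −1.44 ± 0.25, Gadd45b −1.43 ± 0.13, Gadd45a 1.99 ± 0.43). When libraries were left out in turn, Gadd45a passed only without vehicle library 1, Ubb and Ddit3 were lost without any 1 of the PTH libraries, and Gadd45b passed in all 6 fits.

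Under PF431396, 3 of 19 cochaperones rose and 3 fell, led by Ptges3, the HSP90 cochaperone p23, which read 2239.9 and 2457 in PF431396 libraries, against 11490.2, 7465 and 7608 in vehicle libraries (−1.89 ± 0.22, adjusted p = 0.00322). Of the 8 TRiC partners 2 rose and 1 fell (Pfdn5 1.32 ± 0.26, Pdcl −1.33 ± 0.19). Of 12 mitochondrial partners 2 rose and 5 fell, among them Grpel2, an exchange factor of mitochondrial HSP70, which read 289 and 343 in PF431396 libraries, against 1458, 1002 and 1005 in vehicle libraries (−1.85 ± 0.26, adjusted p = 0.00466). Of 15 endoplasmic reticulum chaperones 3 rose and 2 fell, with Dnajb9 at 350.4 and 322 in PF431396 libraries, against 1567, 1614 and 1583 in vehicle libraries (−2.24 ± 0.19, adjusted p = 0.00247). Of 9 stress genes 5 fell and 0 rose, led by Ddit3 (−3.29 ± 0.29, adjusted p = 0.00247), Hmox1 (−2.68 ± 0.37, 0.00465) and Gadd45b (−2.24 ± 0.26, 0.00317). Over all genes 16.9% rose and 20.3% fell. At 1 common total Pfdn5 (0.79, adjusted p = 0.0397) was the only one of these risers that passed; the 3 cochaperones had 0.06 (Ahsa1), 0.13 (St13) and 0.36 (Stub1), and the mitochondrial partners 0.55 (Trap1) and 0.76 (Hscb). The list medians as deposited were 0.21, 0.28, −0.50, 0.04 and −0.59 in the order given, beside −0.02 over all genes.

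In the libraries labelled PDE8A KO, 2 of 19 cochaperones rose and 2 fell. Ppid, the HSP90-binding cyclophilin 40, read 2899, 2838 and 2520.4 in PDE8A KO libraries, against 9358, 6049 and 6469.7 in vehicle libraries (−1.38 ± 0.18, adjusted p = 0.00202). Of the TRiC partners 0 rose and 1 fell, of the mitochondrial partners 3 rose and 1 fell, of the endoplasmic reticulum chaperones 2 rose and 1 fell (Dnajb9, −0.74 ± 0.15), and of the stress genes 1 rose and 1 fell (Gadd45b, −1.19 ± 0.13). Over all genes 14.6% rose and 13.2% fell. The list medians were −0.05, −0.14, 0.18, 0.29 and 0.42 in the same order, beside −0.00 over all genes.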

How the data were processed

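Total RNA of Ocy454 cells was sequenced in 12 libraries, 3 per group. The authors checked reads with FastQC 0.11.5, quantified transcripts with Salmon on GRCm38 and compared groups with DESeq2, as the submitters' processing notes list. Tool versions of the last pair, the annotation release and strandedness are not stated. For each comparison the authors deposited a normalised signal per gene, their log2 fold change, their adjusted p-value and its −log10, which was not used. The signal was estimated counts divided by 1 factor per library, and the signal times that factor was whole within 0.02.

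Here log2(value + 1) of the signal was fitted per table with limma 3.58.1 (R 4.3.3, statmod 1.5.0; trend and robust), with Benjamini-Hochberg adjustment over all named genes. Rose and fell mean an adjusted p below 0.05, and called adds a log2 change of at least 1. The scale understates changes of low genes. Rows with no symbol held at most 0.0249% of values and were left out. Deviations of same-numbered libraries correlated at −0.048 to 0.099. In the PDE8A KO table the same-numbered pairs (0.099, 0.062 and 0.071) all stood above the other pairs (−0.103 to 0.044). With 2 or 3 libraries a group these values cannot decide whether the numbers pair libraries. The main fits treat the libraries as unpaired. Alternatives were other pseudocounts, a filter on low values, a common total, another variance prior, a replicate block, left-out libraries and the authors' own tests.

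Positions and exon lengths are from GENCODE M21 on GRCm38, where 84 protein-coding genes match the symbol rule, and levels per kb use the PTH table's vehicle values. Named were members past both thresholds (at most 12 per comparison, by size), 24 core members, Pde8a and up to 3 called genes per partner list; other genes were named after their values were seen, to complete a count. The members, lists and classes were chosen with earlier results of these data known.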

Additional observations from a re-analysis of the deposited data

How the results depend on the processing

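With 2 or 3 libraries a group, 1 of them unlike its replicates, small changes and low members have wide errors. Leaving out 1 library moved the members passing (called) between 1 and 25 (0 and 2) under PTH, 8 and 31 (8 and 15) under PF431396, and 6 and 18 (3 and 4) in PDE8A KO; the members' medians then ran between −0.0031 and 0.070 under PTH, −0.15 and −0.0196 under PF431396, and −0.026 and 0.048 in PDE8A KO. Libraries brought to 1 common total gave medians of −0.0605 under PTH and −0.592 under PF431396, 34 members passing under PF431396, and reversed Cct2 under PF431396 (−0.43). Constant prior variance gave 0 called and 2 passing under PTH. With the replicate block, which treats same-numbered libraries as pairs, 0 were called and 1 passed under PTH, 14 and 15 under PF431396, and 4 and 9 in PDE8A KO. The authors' deposited table has 7 members passing under PTH and 35 under PF431396. Whether their test counted the identical PF431396 libraries 1 and 3 as separate samples is not known. Pseudocounts of 0.1 or 10 and a minimum mean value of 100 moved no count by over 1.5 times. Over all alternatives, 1058 fold changes of single genes kept direction and side of the threshold, 64 lost and 28 gained a pass, 52 moved by more than their spread and 1 reversed. The cause of these moves was not tested. Count tests (edgeR, DESeq2) were not run since the deposited values are normalised, and Hspa1a and Hspa1b were not summed because Hspa1a is not analysed here.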
